A study of Mus musculus with 9 samples.

Results

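Prostanoid synthesis, transport, signalling and breakdown were followed through 10 genes, Pla2g4a, Ptgs1, Ptgs2, Ptges, Ptges2, Ptges3, Slco2a1, Ptger4, Ptgr1 and Hpgd. They were picked by name from the 24421 genes of the count table, with results of these data already known. RNA was sequenced from 4T1 cells, a mouse mammary carcinoma cell line, after 5 days in culture. There were 3 groups of 3 libraries: 3D spheroids without extra palmitate, 3D spheroids with 75 µM extra palmitate, and 2D monolayers with 75 µM extra palmitate. By the study's methods all media held serum, palmitate was coupled to albumin, and media without it held the matching albumin stock. There was no 2D group without extra palmitate, so the comparison of 3D with 2D holds only with the fatty acid added, and all results come from this 1 line. The labels do not say whether the libraries of a group came from separate cultures, so the spread between them may be technical.

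Levels are CPM, a gene's share of the mRNA reads of a library after TMM scaling. More cells expressing a gene and more RNA per cell cannot be told apart in such bulk libraries. Total counts ranged from 6595514, in the third 3D library with palmitate, to 31177756. Of the 10 genes, 9 passed the filter on low counts, as did 12575 genes in all. The epithelial markers of the line were present, with 7 of 7 tested and summed levels of 5012 to 5266 CPM in 3D with palmitate against 3943 to 4262 CPM in 2D. Krt7 went the other way, with means of 607 and 866 CPM, while the others had higher means in 3D. Leukocyte markers, 7 listed and 6 in the count table, summed to 8.58 to 11.4 CPM in 3D with palmitate and 24.4 to 27.8 CPM in 2D. Only 1, Cd68, passed the filter, with means of 9.40 CPM in 3D with palmitate and 25.7 CPM in 2D. Ptprc and Itgam, too low to be tested, went the other way. Their means were 0.442 and 0.101 CPM in 3D with palmitate and 0.0765 and 0.0214 CPM in 2D. Adgre1 and Cd3e had no reads. Fibroblast markers summed to 91.7 to 110.4 CPM in 3D with palmitate and 29.6 to 31.2 CPM in 2D, where 1 of 5, Pdgfra, passed and Lum had no reads. None of the 4 endothelial markers passed, and their sum stayed between 0.153 and 0.579 CPM in all libraries. The part of these markers in the results was not tested.

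Prostanoids are signalling lipids made from arachidonic acid. Cytosolic phospholipase A2, the product of Pla2g4a, cuts arachidonic acid from membrane phospholipids, and the cyclooxygenases, encoded by Ptgs1 and Ptgs2, turn it into prostaglandin H2. Prostaglandin E synthases make prostaglandin E2 from that intermediate, the carrier encoded by Slco2a1 brings prostaglandins into the cell, and 15-hydroxyprostaglandin dehydrogenase, encoded by Hpgd, inactivates them. COX-2, the Ptgs2 product, is known as the inducible cyclooxygenase of inflammation and of many carcinomas, while COX-1, the Ptgs1 product, is made in many resting tissues.

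The 250 bases upstream of the start site are shown for the 3 genes with the largest 3D over 2D difference, Ptgs1, Ptges and Slco2a1, and for Ptgs2, the sister isoenzyme of Ptgs1. They are RefSeq sequences of GRCm38.p6, written 5′ to 3′ on the gene's strand, at chr2:36230176-36230425 (plus) for Ptgs1, chr1:150099781-150100030 (plus) for Ptgs2, chr2:30903298-30903547 (minus) for Ptges and chr9:103008237-103008486 (plus) for Slco2a1. Capitals mark matches to 5 motifs searched on both strands.
Ptgs1: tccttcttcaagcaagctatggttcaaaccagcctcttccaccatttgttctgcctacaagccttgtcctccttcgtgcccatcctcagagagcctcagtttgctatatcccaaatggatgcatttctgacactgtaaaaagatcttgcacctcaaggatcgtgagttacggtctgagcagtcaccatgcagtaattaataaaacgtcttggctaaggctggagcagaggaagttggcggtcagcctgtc
Ptgs2: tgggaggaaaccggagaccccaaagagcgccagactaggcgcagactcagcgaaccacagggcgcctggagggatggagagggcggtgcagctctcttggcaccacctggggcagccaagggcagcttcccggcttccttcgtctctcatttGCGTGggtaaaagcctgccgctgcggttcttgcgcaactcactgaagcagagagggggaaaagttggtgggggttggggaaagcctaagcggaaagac
Ptges: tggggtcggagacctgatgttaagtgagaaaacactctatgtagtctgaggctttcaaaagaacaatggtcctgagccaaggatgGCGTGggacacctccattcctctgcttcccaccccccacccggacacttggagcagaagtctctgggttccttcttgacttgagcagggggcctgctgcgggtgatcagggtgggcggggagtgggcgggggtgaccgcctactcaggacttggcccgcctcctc
Slco2a1: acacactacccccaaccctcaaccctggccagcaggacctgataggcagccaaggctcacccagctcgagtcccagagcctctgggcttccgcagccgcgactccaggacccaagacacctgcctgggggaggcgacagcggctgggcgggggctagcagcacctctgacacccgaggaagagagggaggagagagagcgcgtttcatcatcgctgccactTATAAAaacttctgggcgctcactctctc
The motifs were the TATA box TATAAA, the CRE core TGACG, the dioxin response core GCGTG, the hypoxia response core ACGTG and the kappaB decamer. From 250 bases before to 50 after the start, they were held by 13.6%, 20.8%, 32.4%, 19.6% and 8.5% of 32851 mouse promoters. The Ptgs1 window held no match. Slco2a1 had TATAAA 29 bases before its start, Ptges had GCGTG 165 bases before and Ptgs2 had GCGTG 98 bases before. The Ptgs2 window also held TGACG and ACGTG, overlapping each other, in the first bases after the start, which are not shown. GCGTG lay in the windows of 6 of the 10 genes. The GC content of the upstream bases was 48.0% for Ptgs1, 61.6% for Ptgs2, 59.6% for Ptges and 63.2% for Slco2a1, against a median of 52.4% over all promoters.

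The first comparison set 3D spheroids against 2D monolayers, both with extra palmitate. Ptgs1, Ptges and Slco2a1 were several-fold higher in 3D and Ptgr1 was slightly higher. Ptgs2, Ptges3 and Pla2g4a were lower, and Ptges2 and Ptger4 had overlapping groups. By edgeR's quasi-likelihood test 7 of the 9 tested genes (77.8%) passed an adjusted p of 0.05, 4 higher and 3 lower, where 68.3% of all tested genes passed (34.5% higher, 33.9% lower). The groups of the same 7 genes did not overlap, which held for 69.4% of all tested genes (34.6% higher, 34.8% lower). Since the genes were picked with this comparison known, nothing is read from these counts, and their differences are given as sizes with standard errors (SE) and no p. The median log2 difference of the 9 was 0.06, and that of all tested genes 0.0083.

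**Figure D1:**
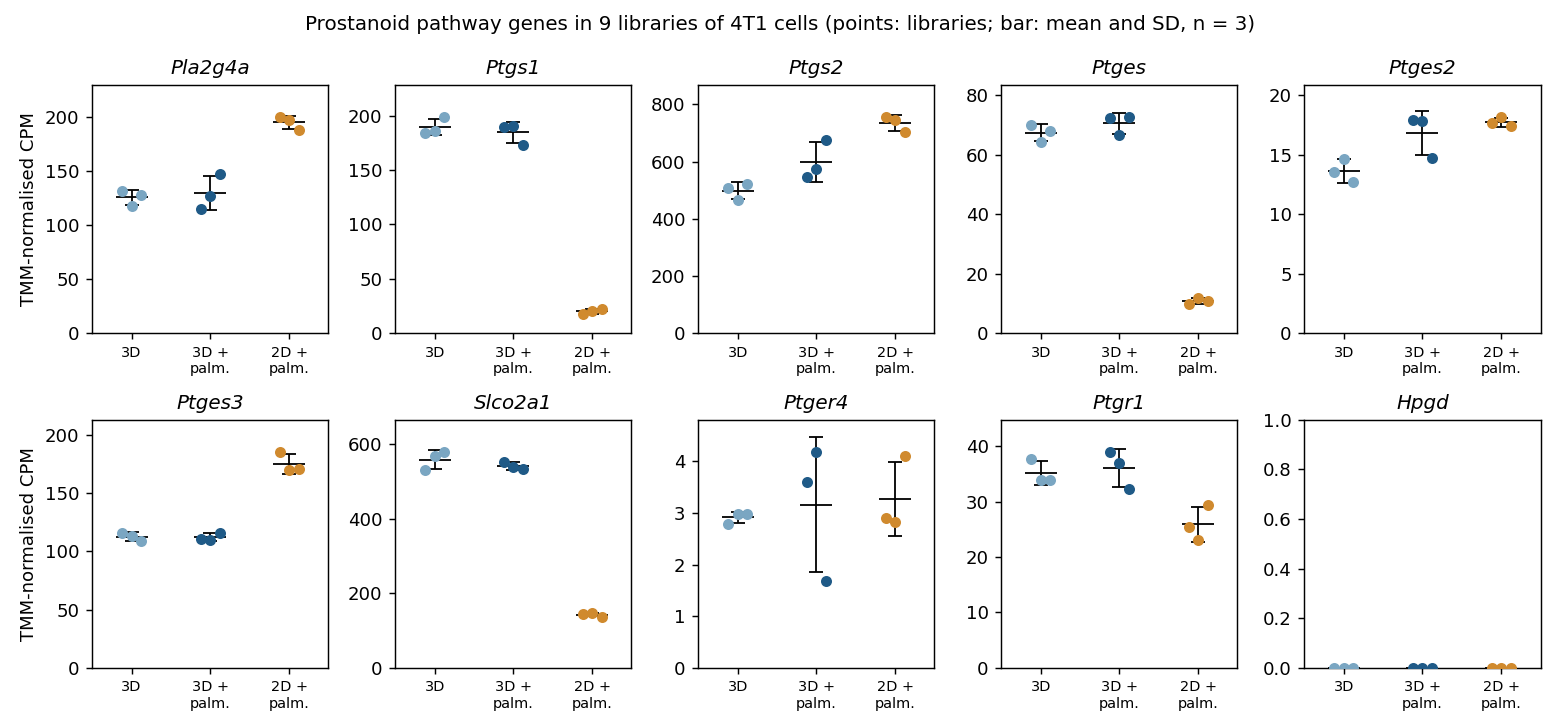
Level of each of the 10 genes in every library, as TMM-normalised CPM on a linear axis from 0, with the mean and SD of each group (n = 3). Ptgs1, Ptges and Slco2a1 were low in all 3 2D libraries, Pla2g4a and Ptges3 were high there, and Hpgd had no reads in any library.

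Among the release enzymes, Pla2g4a lies on the minus strand of chromosome 1 (chr1:149829618-149961290, GENCODE M21 on GRCm38). Pla2g4a had 132, 118 and 127 CPM in the 3D libraries without extra palmitate, 115, 127 and 147 CPM in the 3D libraries with it and 199.6, 197 and 188 CPM in the 2D libraries with it. Every 2D library lay above every 3D library, while the 3D groups overlapped. The group means were 126 ± 7.24, 129.6 ± 16.1 and 195 ± 6.04 CPM (SD, n = 3 each), and the log2 difference of 3D from 2D was -0.60 (SE 0.0814).

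The cyclooxygenases differed in opposite directions between 3D and 2D. Ptgs1 had 184, 186 and 198 CPM in the 3D libraries without extra palmitate, 189.8, 191 and 173 CPM in the 3D libraries with it and 17.8, 20.6 and 22.2 CPM in the 2D libraries with it. All 6 3D libraries were far above the 2D libraries, and the 3D groups overlapped. The mean was 185 ± 9.95 CPM in 3D with palmitate and 20.2 ± 2.25 CPM in 2D (SD, n = 3 each), a 9.07-fold difference and a log2 difference of 3.18 (SE 0.0828). The gene lies at chr2:36230426-36252272 on the plus strand, and 3.6% of its 50-base windows also occur in an overlapping antisense gene, Gm43621.

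Ptgs2 had 508, 466 and 521 CPM in the 3D libraries without extra palmitate, 546, 573 and 676 CPM in the 3D libraries with it and 755, 744 and 703 CPM in the 2D libraries with it. The 2D libraries were highest and the 3D libraries without palmitate lowest, with no overlap between neighbouring groups. The means were 498 ± 29.0, 599 ± 68.6 and 734 ± 27.3 CPM (SD, n = 3 each). The log2 difference of 3D from 2D was -0.30 (SE 0.0778), 0.814-fold, a small difference beside that of Ptgs1. Ptgs2 lies at chr1:150100031-150108227 on the plus strand, 138740 bases from the 5′ boundary of Pla2g4a, with which it lies head to head. The genes Gm19136, Gm44329 and Ptgs2os are annotated between them.

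Per kilobase of the longest transcript, a scale on which genes can be compared with each other, Ptgs2 exceeded Ptgs1 in every library. The ratio of Ptgs1 to Ptgs2 per kb was 0.563, 0.621 and 0.592 in 3D without palmitate, 0.540, 0.517 and 0.397 in 3D with it, and 0.0366, 0.0429 and 0.0491 in 2D with it. The 3D libraries were all above the 2D libraries. The mean ratio was 0.592 ± 0.0289, 0.485 ± 0.0764 and 0.0429 ± 0.00626 (SD, n = 3 each). Seen the other way, Ptgs2 transcripts outnumbered those of Ptgs1 by 1.69 ± 0.0825, 2.1 ± 0.362 and 23.7 ± 3.50 to 1. With the median instead of the longest transcript length the mean ratio in 3D with palmitate was 1.08, so which isoenzyme led in 3D depended on the length used, while the drop in 2D did not.

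**Figure D2:**
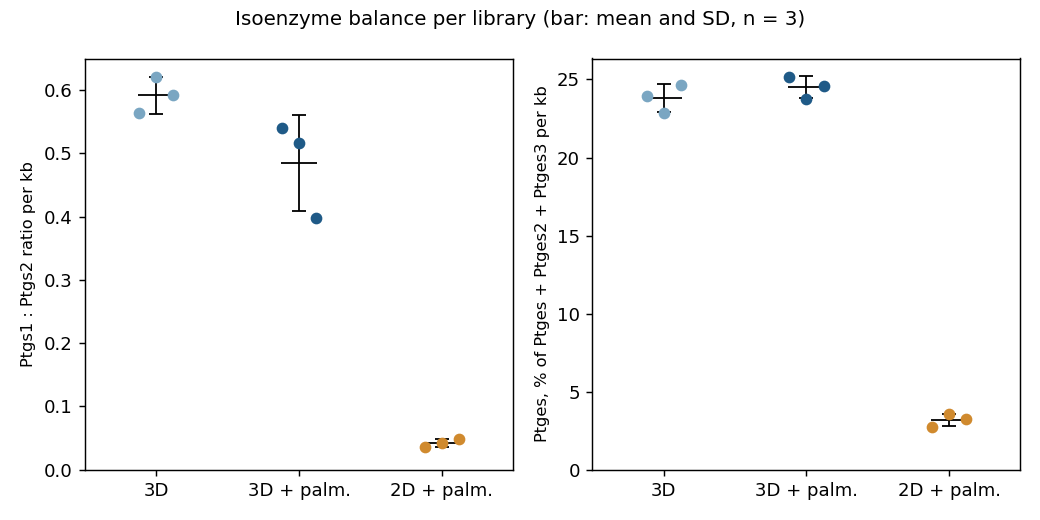
Left, ratio of Ptgs1 to Ptgs2 per kb of longest transcript in each library; right, Ptges as a percentage of the summed per-kb levels of Ptges, Ptges2 and Ptges3. Points are libraries and bars are mean and SD (n = 3); the means in 2D were 0.0429 and 3.18%, against 0.485 and 24.5% in 3D with palmitate, and with the median transcript length they were 0.0953 and 11.4% against 1.08 and 54.6%.

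Of the 3 prostaglandin E synthases, the inducible membrane enzyme Ptges was higher in 3D. Ptges had 69.9, 64.2 and 68.0 CPM in the 3D libraries without extra palmitate, 72.4, 66.5 and 72.6 CPM in the 3D libraries with it and 9.92, 11.9 and 10.8 CPM in the 2D libraries with it. The 2D libraries formed a separate low group. The means were 67.4 ± 2.87, 70.5 ± 3.43 and 10.9 ± 0.981 CPM (SD, n = 3 each), a 6.38-fold difference and a log2 difference of 2.67 (SE 0.0813) between 3D and 2D with palmitate. The annotated gene spans chr2:30889471-30929863 on the minus strand, and the RefSeq start site used for the bases shown above lies inside that span.

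Ptges3, a cochaperone of Hsp90 that also has synthase activity, was lower in 3D. Ptges3 had 116, 113 and 109 CPM in the 3D libraries without extra palmitate, 111, 109.9 and 116 CPM in the 3D libraries with it and 185, 169.7 and 170.5 CPM in the 2D libraries with it. Every 2D library exceeded every 3D library, and the log2 difference of 3D from 2D was -0.64 (SE 0.0619). Of its 50-base windows, 22.2% also occur in the pseudogenes Gm11893 or Ptges3-ps, so its level is uncertain to that extent. Ptges2 had 13.5, 14.7 and 12.7 CPM in the 3D libraries without extra palmitate, 17.9, 17.9 and 14.7 CPM in the 3D libraries with it and 17.6, 18.1 and 17.4 CPM in the 2D libraries with it. The membrane-associated enzyme Ptges2 thus overlapped between 3D and 2D with palmitate, with a log2 difference of -0.047 (SE 0.0947).

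Ptges made up 24.0%, 22.8% and 24.6% of the summed per-kb level of the 3 synthases in the 3D libraries without palmitate. With palmitate it made up 25.2%, 23.8% and 24.6% in 3D and 2.75%, 3.55% and 3.24% in 2D. The mean shares were 23.8% ± 0.906, 24.5% ± 0.710 and 3.18% ± 0.403 (SD, n = 3 each), and the 3D groups overlapped. With the median transcript length the mean shares were 54.5%, 54.6% and 11.4%, so the share depended on the length used, while the low value in 2D did not. The mean ratio of Ptges to Ptges2 per kb was 6.78, 5.78 and 0.838, so Ptges2 led that pair only in 2D.

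Slco2a1, which encodes the prostaglandin importer, was the third gene with a large difference. Slco2a1 had 529, 567 and 578 CPM in the 3D libraries without extra palmitate, 552, 538 and 532 CPM in the 3D libraries with it and 143, 147 and 137 CPM in the 2D libraries with it. The 6 3D libraries lay far above the 2D libraries and overlapped each other between groups. The means were 558 ± 25.5, 541 ± 10.5 and 142 ± 4.81 CPM (SD, n = 3 each), a 3.8-fold difference and a log2 difference of 1.93 (SE 0.0610) between 3D and 2D with palmitate. The gene spans chr9:102988712-103096002 on the plus strand, and its RefSeq start site lies inside that span.

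The receptor gene Ptger4, which encodes the EP4 receptor of prostaglandin E2, had few reads, with 11 to 98 counts per library. Ptger4 had 2.79, 2.97 and 2.98 CPM in the 3D libraries without extra palmitate, 3.61, 4.18 and 1.68 CPM in the 3D libraries with it and 2.89, 2.82 and 4.10 CPM in the 2D libraries with it. The groups overlapped in both comparisons, and the log2 difference of 3D from 2D was 0.063 (SE 0.225). The third 3D library with palmitate held the lowest value, with 11 counts. Of its 50-base windows, 25.7% also occur in other genes, among them Ttc33 on the opposite strand.

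On the breakdown side, Ptgr1 encodes prostaglandin reductase 1, which acts on the product of the dehydrogenase. Ptgr1 had 37.7, 33.9 and 33.8 CPM in the 3D libraries without extra palmitate, 39.0, 37.0 and 32.3 CPM in the 3D libraries with it and 25.5, 23.0 and 29.3 CPM in the 2D libraries with it. Every 3D library lay above every 2D library, and the log2 difference was 0.50 (SE 0.0984), or 1.41-fold. The dehydrogenase gene itself, Hpgd (chr8:56294585-56321043, plus strand), had 0 of 167367204 reads over all 9 libraries. A count of 0 allows up to 3 counts, or 0.0179 CPM over all libraries and 0.0962 to 0.455 CPM in a single library, for counting error only. No 50-base window of Hpgd occurs in another gene. Other genes were also listed at 0 (Akr1b3, Slco3a1 and the ribosomal protein gene Rpl26), and Eno1, a glycolytic gene, had 1 read. Hpgd can therefore only be said to be listed at 0.

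Ranked per kilobase of the longest transcript, Ptgs2 led in all 3 groups. In 3D with palmitate its mean of 134 ± 15.4 CPM per kb was followed by Slco2a1 at 75.9, Ptgs1 at 64.4, Ptges3 at 56.1, Pla2g4a at 37.5, Ptges at 19.3, Ptgr1 at 15.7, Ptges2 at 3.38 and Ptger4 at 0.837 CPM per kb. The order in 3D without palmitate was the same. In 2D with palmitate Ptgs2 at 165 ± 6.13 CPM per kb was followed by Ptges3 at 87.6, Pla2g4a at 56.4, Slco2a1 at 19.99, Ptgr1 at 11.3, Ptgs1 at 7.04, Ptges2 at 3.56, Ptges at 2.98 and Ptger4 at 0.867 CPM per kb. In each group no 2 neighbours in the order overlapped between libraries. With the median transcript length the order changed: by the group means Ptgs1 led Ptgs2 in both 3D groups, at 272 against 207 CPM per kb without palmitate, and Ptges took place 4, while Ptgs2 still led in 2D at 305 CPM per kb. Ptgs2 stood above 97.4% of tested genes in 3D with palmitate and above 97.5% in 2D. Ptgs1 stood above 92.5% and 41.7%, and Ptges above 68.9% and 25.8%.

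**Figure D3:**
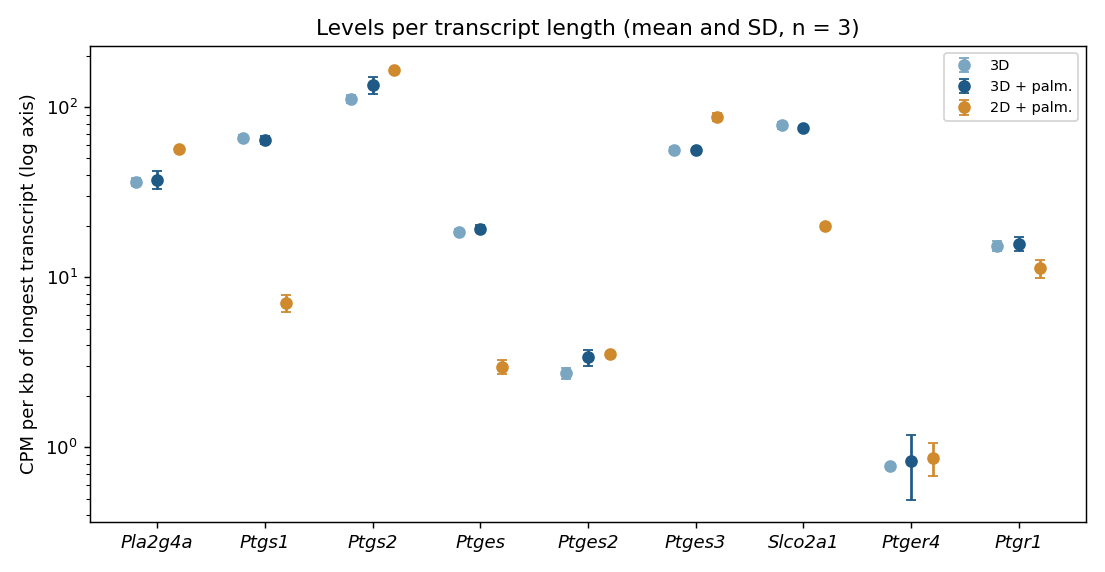
Mean level per kilobase of the longest transcript, with SD (n = 3), for the 9 genes with reads, on a log axis. With this length Ptgs2 was highest in every group, and Ptgs1, Ptges and Slco2a1 dropped in 2D with palmitate (7.04, 2.98 and 19.99 CPM per kb).

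The second comparison set 3D spheroids with extra palmitate against 3D spheroids without it. It shares the 3D libraries with palmitate with the first. None of the 9 tested genes passed the adjusted threshold by edgeR or by DESeq2, where 2.19% of all tested genes passed by edgeR (1.38% higher, 0.811% lower). The groups of 2 genes (22.2%), Ptgs2 and Ptges2, did not overlap, which held for 18.6% of all tested genes (10.4% higher, 8.19% lower). Both were higher with palmitate. The genes were picked with this comparison known too, so nothing is read from these counts or from which of them passed in other fits. Ptgs2 was 1.20-fold higher, a log2 difference of 0.26 (SE 0.0779). Ptges2 was 1.26-fold higher, a log2 difference of 0.34 (SE 0.0978), but its nearest libraries, 14.7 CPM with palmitate and 14.7 CPM without, were almost equal. Without the first 3D library with palmitate Ptgs2 passed the threshold, and without the third Ptges2 did. The third, the smallest library, bore on this comparison as a whole: 275 genes of all tested passed with it and 1901 without it, and 71 to 200 passed with any other library left out.

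The other members differed little between the 3D groups. The log2 difference with palmitate was -0.036 (SE 0.0724) for Ptgs1, 0.064 (SE 0.0703) for Ptges, -0.045 (SE 0.0584) for Slco2a1 and 0.057 (SE 0.0968) for Ptgr1. It was 0.035 (SE 0.0819) for Pla2g4a, -0.01 (SE 0.0623) for Ptges3 and 0.24 (SE 0.234) for Ptger4, the last with the widest error of the 9. All 7 had overlapping groups.

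**Figure D4:**
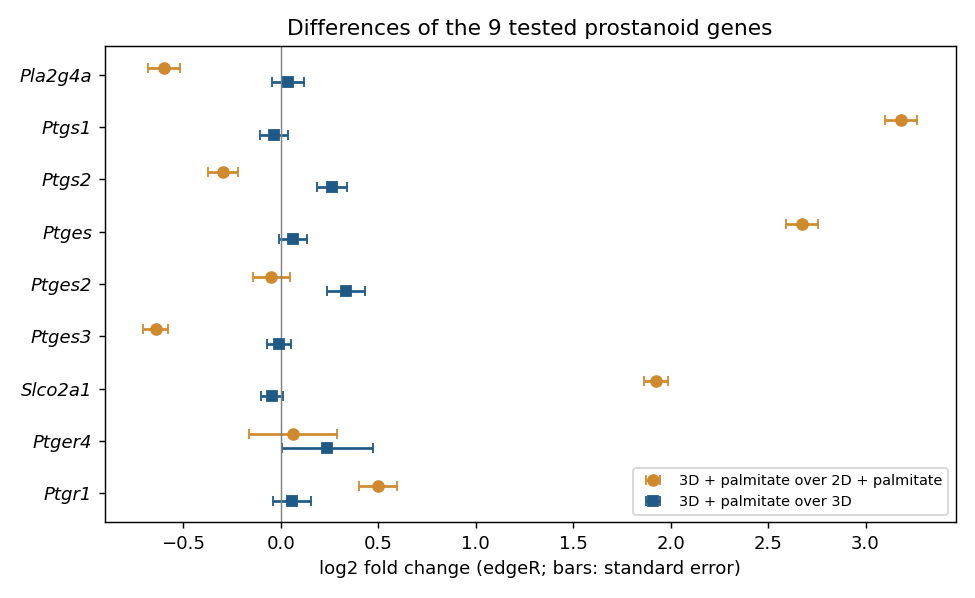
Log2 fold change of the 9 tested genes with the standard error from edgeR, for 3D over 2D with palmitate (circles) and for palmitate over none in 3D (squares). Ptgs1 (3.18), Ptges (2.67) and Slco2a1 (1.93) stand far to the right for the first and near 0 for the second, which shares the 3D libraries with palmitate.

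A further 56 genes of arachidonate and prostanoid metabolism were listed by function, and 27 of them passed the filter. These lists too were written with earlier results of these data known, so nothing is read from their counts of calls. In 3D against 2D with palmitate 23 of the 27 (85.2%) passed the edgeR test, 16 higher and 7 lower. Of all tested genes 68.3% passed (34.5% higher, 33.9% lower). The median log2 difference of the 27 was 0.37. Among release genes, 9 of 10 tested passed, 6 higher and 3 lower. Those higher included Mgll, which encodes monoacylglycerol lipase, by 1.27 (SE 0.145, adjusted p = 2.28e-06), Faah, which encodes fatty acid amide hydrolase, by 0.90 (SE 0.0789, adjusted p = 1.47e-07), and Dagla, a diacylglycerol lipase gene, by 0.48 (SE 0.0762, adjusted p = 6.22e-05). Over all ways of fitting tried, Mgll ranged from 1.11 to 1.32, Faah from 0.60 to 0.96 and Dagla from 0.17 to 0.53. The secreted phospholipase gene Pla2g12a was lower, at 32.4 ± 0.968 CPM in 3D and 82.4 ± 5.27 CPM in 2D, a log2 difference of -1.35 (SE 0.0761, adjusted p = 1.45e-09). Plaa, a phospholipase A2 activating protein, was lower, with -0.45 (SE 0.0626, adjusted p = 1.63e-05) and so was Pla2g6, with -0.33 (SE 0.0843, adjusted p = 0.00290). Pla2g4e had 19, 7 and 6 counts in 3D with palmitate and 0, 4 and 0 in 2D, so no fold is given.

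The 5 genes listed as returning arachidonic acid to phospholipids all passed, 2 higher and 3 lower, where 68.3% of all tested genes passed (34.5% higher, 33.9% lower). Acsl4, which activates arachidonic acid with coenzyme A, had 742, 826 and 1082 CPM in 3D with palmitate and 243, 251 and 216 CPM in 2D, a log2 difference of 1.90 (SE 0.115, adjusted p = 2.97e-09). Its 3D level without palmitate was 1010.2 ± 70.1 CPM (SD, n = 3). Mboat7, an acyltransferase of phosphatidylinositol, was higher by 0.57 (SE 0.0687, adjusted p = 3.75e-06). Lpcat2, Lpcat3 and Acsl3 were lower, with log2 differences of -1.18 (adjusted p = 8.94e-07), -0.58 (adjusted p = 2.29e-06) and -0.47 (adjusted p = 0.000494).

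Of the other transporters 2 of 4 tested passed, both higher in 3D, and of the other breakdown genes 5 of 5 passed, 4 of them higher, where 34.5% of all tested genes passed as higher. Abcc4, an ATP-driven exporter of prostaglandins, had 100.1, 102 and 105 CPM in 3D with palmitate and 54.6, 56.8 and 51.2 CPM in 2D, a log2 difference of 0.92 (SE 0.0656, adjusted p = 1.74e-08). Over all ways of fitting tried, the Abcc4 difference ranged from 0.60 to 0.95. Its relative Abcc1 was higher by 0.28 (SE 0.0604, adjusted p = 0.000910), but turned to -0.11 (adjusted p = 0.0424) once the dependence of the libraries on GC content and transcript length was taken out. The carbonyl reductase gene Cbr2 was higher by 1.5 (SE 0.122, adjusted p = 6.79e-08), Cbr1 by 0.74 (SE 0.0950, adjusted p = 7.42e-06) and Zadh2, which encodes prostaglandin reductase 3, by 0.56 (SE 0.0602, adjusted p = 1.16e-06). Cbr4 was lower, with -0.33 (SE 0.100, adjusted p = 0.00940), and missed the threshold without the first 3D library with palmitate, with an adjusted p = 0.0924.

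Few of the terminal synthase and receptor genes had enough reads to be tested. Of 9 other terminal synthase genes 1 was tested, Cyp2s1, which did not pass. The genes for the prostaglandin D synthases Hpgds and Ptgds reached at most 14 and 9 counts in any library, and those for the prostacyclin and thromboxane synthases, Ptgis and Tbxas1, at most 4 each. Of 9 other receptor genes listed 2 were tested. Among those not tested, Ptger2 reached 4 counts. Ptger3 and Ptgfr can, like Hpgd, only be said to be listed at 0. Ptgfrn, a negative regulator of the prostaglandin F receptor, was higher in 3D by 0.62 (SE 0.0666, adjusted p = 1.14e-06). Over all ways of fitting tried, the Ptgfrn difference ranged from 0.295 to 0.66.

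**Figure D5:**
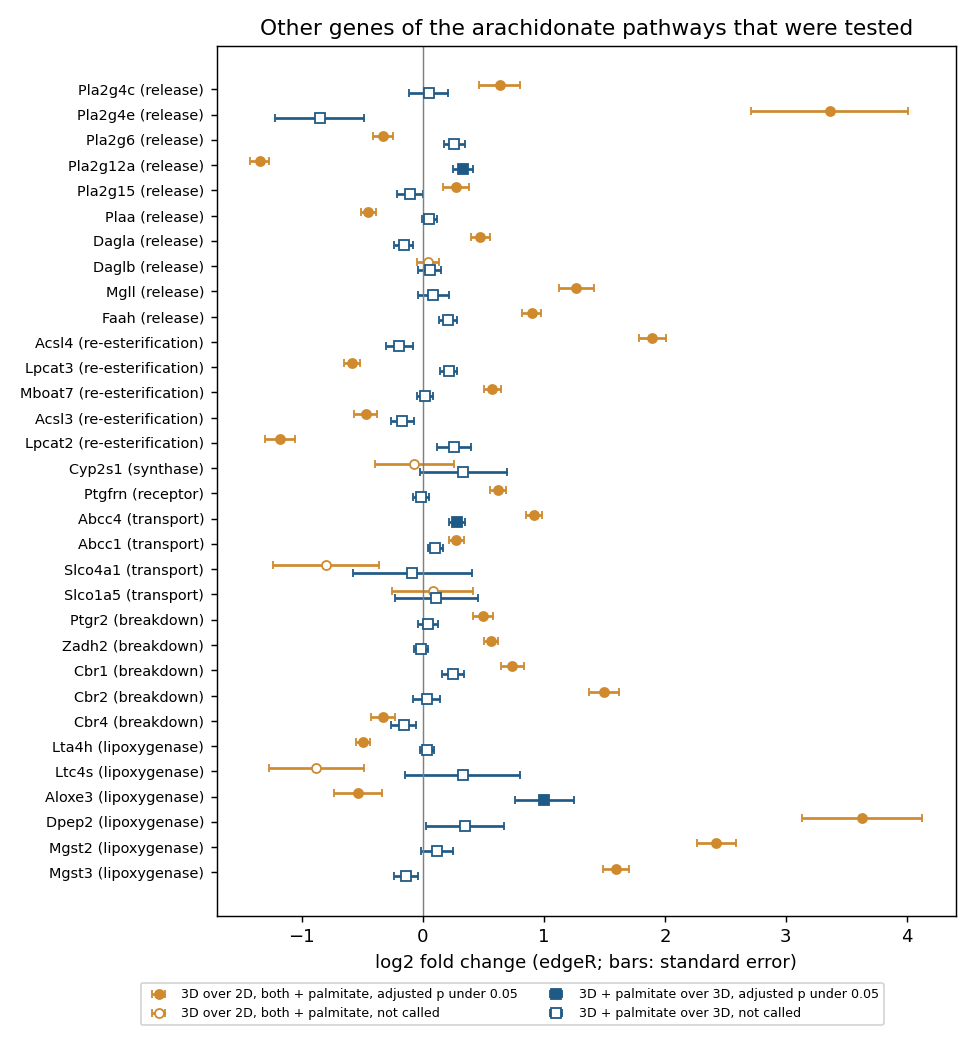
Log2 fold change with standard error (edgeR) of other tested genes of the arachidonate pathways, by function, with 1 receptor gene left out; filled symbols passed an adjusted p of 0.05. Acsl4 (1.90) and Pla2g12a (-1.35) stand far apart for 3D over 2D, and Abcc4, Pla2g12a and Aloxe3 passed for palmitate in 3D; Pla2g4e and Dpep2 had almost no reads in 2D, so the size of their fitted values is not a measured fold.

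For extra palmitate in 3D, 2 of the 27 genes (7.41%) passed, both higher, beside 2.19% of all tested genes (1.38% higher). Abcc4 had 87.7, 79.6 and 85.1 CPM without and 100.1, 102 and 105 CPM with palmitate, a log2 difference of 0.28 (SE 0.0644, adjusted p = 0.0390). Pla2g12a had 27.2, 23.4 and 26.5 CPM without and 31.7, 33.5 and 32.0 CPM with it, a log2 difference of 0.33 (SE 0.0807, adjusted p = 0.0498). Neither call is firm: of 19 other ways of fitting the data, 11 lost that of Abcc4 (adjusted p from 0.00189 to 0.220) and 15 that of Pla2g12a (adjusted p from 0.00892 to 0.280). Leaving out any library other than the third 3D library with palmitate lost the call of Pla2g12a. The call of Abcc4 was kept without the first or the third 3D library with palmitate or the third 2D library, and lost without any of the other 6. Without the third 3D library with palmitate 29 genes of these lists were tested and 8 passed, where 1901 of all genes passed.

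The genes closest in pattern to each enzyme were found by Pearson correlation of log2 CPM over the 9 libraries, which share the 3 groups, and are given as a description. For Ptgs1 they were Slc43a2, Trib2 and Egr3 and for Ptges Bhlhe41, Tnfrsf23 and Fam63a, all with r = 0.999. As many as 1655 tested genes exceeded r = 0.95 with Ptgs1 and 1694 with Ptges, so the pattern is a common one. For Ptgs2 they were Dlgap5 (r = 0.989), Lsg1 (r = 0.988) and Abcb1b (r = 0.985), and 59 genes exceeded 0.95.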

How the data were processed

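Poly(A) RNA of 4T1 cells was sequenced (KAPA Stranded mRNA kit, single-end reads of 50 bases). The authors trimmed reads with fastq-mcf, checked them with FastQC (0.11.9), aligned them to GRCm38 with HISAT2 (2.1.0), counted them per gene with HTSeq and deposited raw counts for 24421 genes in 9 libraries. The annotation release and the strand setting are not given in the sources used here. Libraries were grouped by their labels. Total counts ranged from 6595514 to 31177756, and Rn45s took 1.77% to 5.38% of them.

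In R 4.3.3, counts were filtered (filterByExpr), scaled (TMM) and fitted with edgeR 4.0.16 (quasi-likelihood test, 1 fit of all libraries, condition only). Benjamini-Hochberg adjustment ran over 12575 genes with a threshold of 0.05, and each SE was derived from the log2 fold change and its F statistic. The fit was also run on simulated counts with the same spread for all genes, unlike these data, and nothing is read from that run. The members and the lists were chosen with earlier results of these data known. Named genes were the members, the called genes of each list (at most 3 by smallest p per direction) and 3 genes like Ptgs1, Ptges and Ptgs2; Cyp2s1, Pla2g4e and the genes named for their zero or low counts were named after their values were seen. The result of 1 called receptor gene is not reported here. Levels per kb used the longest GENCODE M21 transcript, and promoters came from RefSeq, which matched 10 of 10 members. By symbol 23376 genes matched the reference and by synonym 669. Alternatives were RLE or library size scaling, no filter or at least 10 counts, the compared groups alone, a replicate block, DESeq2 1.42.0, a minimum log2 change of 0.5, Rn45s as a covariate, removal of GC and length trends, another transcript length and each library left out.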

Additional observations from a re-analysis of the deposited data

How the results depend on the processing

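The 9 genes were picked, and the other lists written, with results known, so nothing is read from their counts of calls below. In 3D against 2D 7 of the 9 passed in each leave-one-out fit, where 7977 to 8866 of all genes passed. Above a minimum log2 change of 0.5 there were 6, where 5113 of all genes passed. The main fit gave 7, where 68.3% of all tested genes passed. Counts over all genes are not given here for the fits that follow. The replicate block gave 7, DESeq2 gave 7 and removal of GC and length trends gave 8. That removal moved Slco2a1 to 1.53, Ptges to 2.56, Ptgs2 to -0.45, Ptges3 to -0.52 and Ptges2 to -0.31, and reversed Abcc1 to -0.11. Over all alternatives Ptgs1 ranged from 3.10 to 3.25. With palmitate in 3D, the 0 calls among the 9 became 1 with no filter (Ptgs2), where 617 of all genes passed. They became 2 with GC and length trends removed (Ptgs2 and Ptges2), where 940 of all genes passed. With a library left out they were 0 to 1, where 71 to 1901 of all genes passed. No pairing by replicate number was detected: deviations of same-numbered libraries had a median correlation of -0.05 and those of other pairs 0.03. Of 9 libraries, 2 correlated best with their own number. With so few libraries this cannot show that they were unpaired, and the labels do not say. With the replicate block the calls among the 27 other prostanoid genes were 22 for 3D against 2D. The count over all genes in that fit is not given here. The main fit gave 23, where 68.3% of all tested genes passed. For palmitate in 3D the block gave 0 calls among the 27, where 111 of all genes passed.

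For those lists the 23 calls became 14 above a minimum log2 change of 0.5, where 5113 of all genes passed. They were 20 to 24 with a library left out. The number tested changed with the setting: 24 with at least 10 counts in every library and 29 without the third 3D library with palmitate. For the 2 calls with palmitate, the calls over all genes stand in brackets. They became 1 under RLE scaling (259) and 1 with at least 10 counts in every library (233). They became 0 under library size only (227), with only the compared groups (77) and by DESeq2 on those groups (182). They also became 0 with Rn45s as covariate (44) and above a log2 change of 0.5 (119). With GC and length trends removed they were 4 (940), and with a library left out 0 to 8 (71 to 1901). For the lipoxygenase genes the 5 calls in 3D against 2D became 8 with no filter, when 19 were tested and 8897 of all genes passed. They were 4 to 6 with a library left out. The 1 call with palmitate became 0 under library size only (227 of all genes), only the compared groups (77) and the replicate block (111). It also became 0 by DESeq2 on those groups (182) and with Rn45s as covariate (44), and was 0 to 1 with a library left out. With the median transcript length the ratio of Ptgs1 to Ptgs2 was 1.32, 1.08 and 0.0953 in 3D, 3D with palmitate and 2D, and the Ptges share 54.5%, 54.6% and 11.4%. Over all genes, calls with a library left out ranged from 7977 to 8866 for 3D against 2D and from 71 to 1901 for palmitate. The causes were not tested. The smallest library, with 6595514 counts, limits genes such as Ptger4.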

Other observations

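Of 20 listed lipoxygenase and leukotriene genes 6 passed the filter on low counts. Nothing is read from their counts of calls, since this list too was written with earlier results of these data known. In 3D against 2D with palmitate 5 of the 6 passed the edgeR test, 3 higher and 2 lower, beside 68.3% of all tested genes (34.5% higher, 33.9% lower). The microsomal glutathione S-transferase genes Mgst2 and Mgst3, of which Mgst2 can make leukotriene C4, were higher in 3D by 2.42 (SE 0.161, adjusted p = 7.79e-09) and 1.60 (SE 0.106, adjusted p = 8.16e-09). Mgst2 had 17.5, 13.1 and 14.9 CPM in 3D and 3.31, 2.63 and 2.90 CPM in 2D. Lta4h, leukotriene A4 hydrolase, was lower, with -0.49 (SE 0.0582, adjusted p = 3.24e-06). Dpep2 had 31, 8 and 9 counts in 3D with palmitate and 2, 2 and 1 in 2D, so no fold is given. The 5-lipoxygenase gene Alox5 reached at most 3 counts in any library and its activating protein gene Alox5ap at most 14.

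Aloxe3, an epidermal lipoxygenase, was the 1 lipoxygenase gene that passed for palmitate in 3D. It had 0.945, 1.23 and 1.14 CPM without and 2.28, 1.82 and 2.60 CPM with palmitate, and 2.81, 2.85 and 3.83 CPM in 2D with it. The log2 difference with palmitate was 1.00 (SE 0.243, adjusted p = 0.0478 by edgeR), and 12 of 19 other fits lost the call (among them each library left out except the third of 3D with palmitate and the third of 2D), with adjusted p from 0.0126 to 0.187. The difference of 3D from 2D was -0.54 (SE 0.199, adjusted p = 0.0269), lost in 7 of 19 (among them without the first or second 3D library with palmitate, or the third 2D library), with adjusted p from 0.00180 to 0.142.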
